A study of Mus musculus with 3 samples.

Results

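The 44 protein-coding mouse genes whose symbol is Fox followed by a lower-case letter and a number were examined, out of 21887 protein-coding genes placed on the assembled chromosomes. They were taken by symbol from the RefSeq annotation of GRCm38.p6, the assembly behind mm10. The data are chromatin immunoprecipitation followed by sequencing (ChIP-seq) of suprabasal keratinocytes, which have left the basal layer and begun to differentiate, and all mice were wild type of the BALB/c strain. The DLX3 group is 1 library made with an anti-DLX3 antibody, DLX3 being a homeobox regulator active in the upper epidermis, hair and teeth, and the H3K4me3 group is 1 library made with an antibody against H3K4me3, the trimethyl mark that promoter histones carry at active and poised genes. The IgG group, 1 library made with nonspecific immunoglobulin from the same kind of cells, was not analysed here. All 3 groups share genotype and strain, the series text describes newborn animals while the sample labels give adults, and this was not settled here. With 1 library per antibody there is no replicate spread, so every comparison below describes these peak lists and carries no test.

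Forkhead proteins bind DNA through a winged-helix domain, and the letter in each symbol names a subfamily. Foxn1 is the nude gene, needed for hair shaft formation and for keratinocytes to enter differentiation, and Foxq1 is the satin gene, needed for the medulla of the hair shaft. Foxe1 and Foxi3 act in hair follicle development, Foxc1 and Foxp1 in the quiescence of hair follicle stem cells, Foxm1 in the programme of mitosis, and Foxo1 and Foxo3 are nuclear effectors that insulin and growth factor signalling switches off through the kinase AKT. These 9 genes form the class called epidermal here. The roles given for Foxm1, Foxo1 and Foxo3 are not particular to the epidermis, so the name is a loose one for them. A further 8 genes that many tissues express (Foxj2, Foxj3, Foxk1, Foxk2, Foxn2, Foxn3, Foxo4 and Foxp4) form the widely expressed class, and the 27 remaining genes, most of them known for other lineages such as endoderm, brain, mesenchyme or regulatory T cells, form the lineage class. The classes rest on general knowledge of the genes, but they were drawn up with earlier results of these data known.

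The DLX3 list held 18087 peaks and the H3K4me3 list 16735. The deposited score of each peak is the authors' value. It has the form of 10 times the negative log10 of a p-value and starts at 50.01 for DLX3 and at 50 for H3K4me3, which would be a p of 1e-05. The median score was 83.35 for DLX3 and 823.67 for H3K4me3, and 766 H3K4me3 peaks share a score of exactly 3100. Scores were compared within a list only, and read depth is unknown because the lists hold no read counts. As a check of the labelled cells, 9 of 10 keratinocyte markers had an H3K4me3 peak within 1 kb of an end of their span, Trp63 being the exception, while 0 of 8 immune, 1 of 6 endothelial, 2 of 6 melanocyte and 4 of 6 fibroblast markers had such a peak. The keratinocyte list was not divided by layer, so it cannot tell suprabasal from basal cells. Only ends of the span were counted, so a peak farther inside Trp63 would not show. By a wider measure, the whole span with 1 kb on either side, 64.1% of all protein-coding genes had H3K4me3. The fibroblast count was not below that share. The marked genes of other cell types were Kdr (endothelial), Pmel and Mitf (melanocyte), and Col1a1, Col1a2, Pdgfra and Dcn (fibroblast). The part of such cells in the H3K4me3 peaks of lineage genes was not tested.

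Promoter sequences are shown first for the members at which a DLX3 peak lay on an annotated start. RefSeq promoter windows of GRCm38.p6, from 250 bases before to 50 bases after a start, were found for 28 of the 44 members, in 33 entries because some genes have several starts. A DLX3 peak overlapped 5 of these windows, and all 5 belonged to the epidermal class (5 of 8 epidermal entries, 0 of 25 entries of the other members and 24.5% of the 21263 entries of all protein-coding genes). The epidermal members Foxe1, Foxm1 and Foxq1 and the other members Foxk1, Foxn2 and Foxh1, each with a DLX3 peak over an end of its span, are not among the 28, so these shares leave them out. The 5 windows, each read in the direction of transcription and taken from the C57BL/6J reference, follow, with those of Foxn1 and Foxf2 beside them as members with H3K4me3 and no DLX3 peak over the start. Capitals mark matches to TAATT, the core that homeodomain proteins recognise, or to its longer form TAATTG, on either strand.
Foxc1 (chr13:31806396-31806695, plus strand): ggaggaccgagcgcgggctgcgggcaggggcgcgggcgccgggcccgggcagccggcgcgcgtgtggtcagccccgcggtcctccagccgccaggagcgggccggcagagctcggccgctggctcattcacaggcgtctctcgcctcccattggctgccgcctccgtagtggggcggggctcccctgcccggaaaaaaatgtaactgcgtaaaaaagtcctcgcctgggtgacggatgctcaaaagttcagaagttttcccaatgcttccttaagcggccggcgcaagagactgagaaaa
Foxi3 (chr6:70956356-70956655, plus strand): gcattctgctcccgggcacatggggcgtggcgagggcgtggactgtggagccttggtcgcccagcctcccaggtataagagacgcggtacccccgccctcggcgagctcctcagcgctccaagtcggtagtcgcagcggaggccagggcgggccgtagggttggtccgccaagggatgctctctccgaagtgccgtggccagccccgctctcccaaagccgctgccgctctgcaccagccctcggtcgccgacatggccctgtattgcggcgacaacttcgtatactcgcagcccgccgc
Foxo1 (chr3:52268087-52268386, plus strand): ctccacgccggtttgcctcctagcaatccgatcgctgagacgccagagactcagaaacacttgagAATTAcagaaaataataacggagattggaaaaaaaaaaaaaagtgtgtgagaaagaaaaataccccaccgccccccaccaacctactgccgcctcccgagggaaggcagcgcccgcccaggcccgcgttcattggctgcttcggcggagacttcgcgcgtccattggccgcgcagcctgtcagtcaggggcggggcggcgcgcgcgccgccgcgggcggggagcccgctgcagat
Foxo3 (chr10:42276646-42276945, minus strand): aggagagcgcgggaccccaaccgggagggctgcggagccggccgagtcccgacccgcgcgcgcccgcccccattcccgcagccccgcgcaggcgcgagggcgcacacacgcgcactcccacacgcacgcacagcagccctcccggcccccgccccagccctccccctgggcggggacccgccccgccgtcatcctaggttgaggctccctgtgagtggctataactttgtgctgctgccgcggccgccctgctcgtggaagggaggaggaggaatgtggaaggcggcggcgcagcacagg
Foxp1 (chr6:99028249-99028548, minus strand): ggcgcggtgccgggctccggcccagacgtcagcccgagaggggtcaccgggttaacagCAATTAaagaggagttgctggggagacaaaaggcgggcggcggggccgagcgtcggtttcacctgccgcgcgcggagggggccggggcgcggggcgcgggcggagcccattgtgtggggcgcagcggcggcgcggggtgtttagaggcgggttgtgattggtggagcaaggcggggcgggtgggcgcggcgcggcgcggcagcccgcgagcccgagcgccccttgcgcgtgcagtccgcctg
Foxn1 (chr11:78386559-78386858, minus strand): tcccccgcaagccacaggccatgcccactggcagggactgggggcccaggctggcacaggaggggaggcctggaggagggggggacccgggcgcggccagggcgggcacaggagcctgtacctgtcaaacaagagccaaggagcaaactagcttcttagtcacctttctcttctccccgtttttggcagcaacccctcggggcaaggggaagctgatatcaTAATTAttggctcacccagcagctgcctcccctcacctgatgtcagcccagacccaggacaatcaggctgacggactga
Foxf2 (chr13:31625566-31625865, plus strand): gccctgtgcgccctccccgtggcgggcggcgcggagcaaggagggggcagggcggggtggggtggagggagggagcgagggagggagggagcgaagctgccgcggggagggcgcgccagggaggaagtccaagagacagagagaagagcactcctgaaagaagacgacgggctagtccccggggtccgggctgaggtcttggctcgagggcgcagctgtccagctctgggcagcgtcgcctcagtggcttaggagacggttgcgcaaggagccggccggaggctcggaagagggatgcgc

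In the windows with a DLX3 peak, TAATT or its reverse complement occurred in Foxo1, at -185 from the start, and in Foxp1, at -191, where it formed part of TAATTG. The windows of Foxc1, Foxi3 and Foxo3 held no match. The Foxn1 window, without a DLX3 peak, held 2 overlapping matches at -29 and -28. A match was therefore present both with and without a peak: in 2 of 5 Fox windows with DLX3 and in 6 of 28 without (21.4%), against 23.5% of all windows and 13.8% of the 5215 windows with a DLX3 peak. TAATTG stood in 4 of 33 Fox windows (12.1%) and 6.83% of all. The forkhead motif GTAAACA, searched on both strands, stood in 1 of 33 Fox windows, that of Foxa1, and in 3.01% of all, and the AP-1 motif TGANTCA stood in 2 (Foxe3 and Foxn3) and in 6.99% of all. The 5 windows with DLX3 were rich in G and C, at 61.3% to 75.3% with a median of 69.0%, against a median of 61.3% in the 28 Fox windows without DLX3 and 56.3% in all windows. All windows with DLX3 had a median of 63.7%. H3K4me3 overlapped 8 of 8 epidermal and 14 of 25 other Fox windows, against 58.5% of all.

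**Figure D1:**
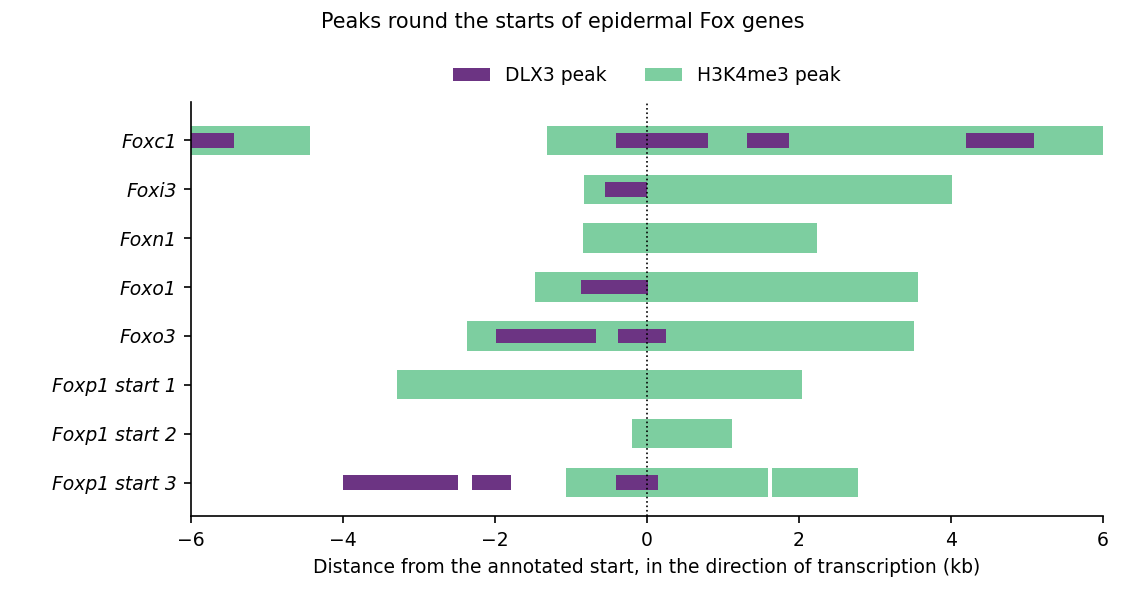
Positions of DLX3 peaks (dark bars) and H3K4me3 peaks (light bars) within 6 kb of the 8 annotated starts of epidermal Fox genes in the promoter table, drawn in the direction of transcription; the horizontal axis is distance in kb and Foxp1 start 3 is the start whose sequence is printed. A DLX3 peak covers the start of Foxc1, Foxi3, Foxo1, Foxo3 and Foxp1 start 3, and H3K4me3 covers all 8 starts.

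The main comparison was between the epidermal members and the others. All 9 epidermal members had a DLX3 peak over their span with 20 kb on either side, against 13 of the 35 others (37.1%) and 52.5% of all protein-coding genes. The others divided into 5 of 8 widely expressed members (62.5%) and 8 of 27 lineage members (29.6%). Over the whole family the count was 22 of 44, close to the share of all genes. H3K4me3 was in the window of 9 of 9 epidermal and 30 of 35 other members, against 71.2% of all genes. Both marks were in the window of 9 of 9 epidermal and 12 of 35 other members, against 50.3% of all genes. A DLX3 peak that overlapped H3K4me3 by at least 1 bp was found at 8 of 9 epidermal members, Foxn1 being the exception, and at 12 of 35 others (34.3%), against 42.5% of all genes. With a stricter epidermal class of 6 members, DLX3 was at 6 of 6 against 16 of 38 others. DLX3 on H3K4me3 was then at 5 of 6 against 15 of 38. Fox genes are short, with a median span of 5193.5 bp against 17169 bp over all protein-coding genes. DLX3 lay in the window of 39.3% of all genes with spans under 10 kb, 59.4% of those of 10 to 100 kb and 62.6% of those over 100 kb. Among spans under 10 kb, DLX3 was present at 4 of 4 epidermal and 6 of 22 other members. With a 50 kb window, DLX3 was at 9 of 9 epidermal and 18 of 35 other members, against 63.9% of all genes. At least 4 DLX3 peaks were found at 3 epidermal members (Foxc1, Foxo3 and Foxp1) and at 3 widely expressed ones (Foxk1, Foxn3 and Foxp4), against 7.7% of all genes.

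**Figure D2:**
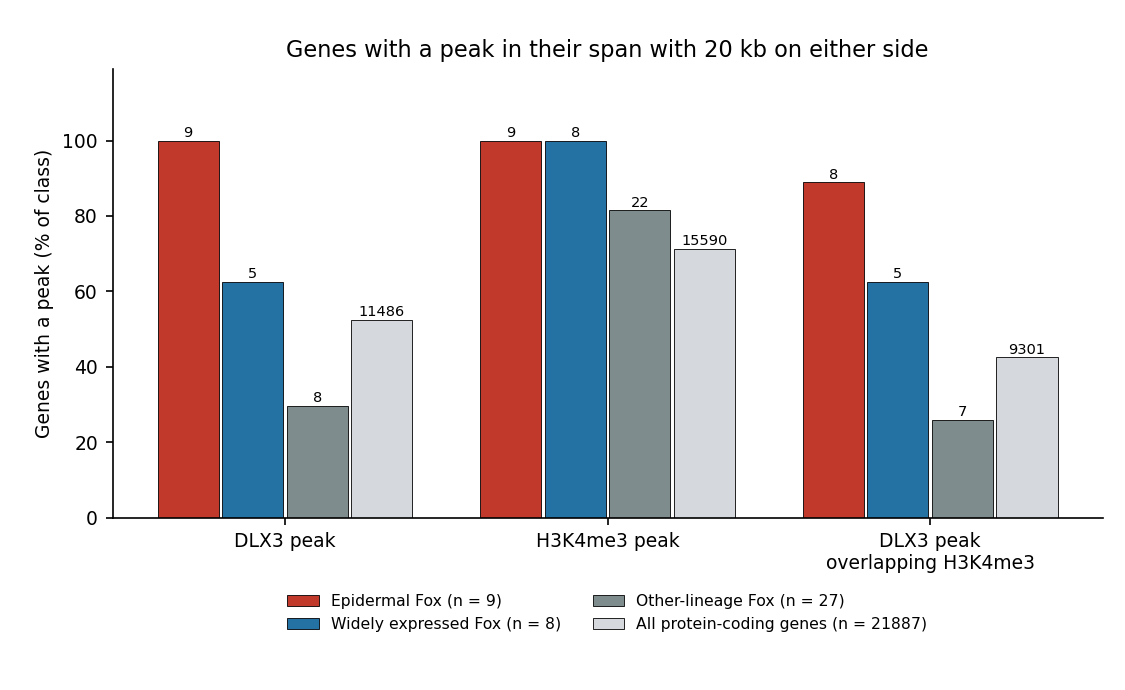
Share of genes, in percent, with a DLX3 peak, an H3K4me3 peak, or a DLX3 peak overlapping H3K4me3 in the span with 20 kb on either side, for the 3 Fox classes and for all protein-coding genes; numbers above the bars are gene counts. For DLX3 the 9 epidermal members stand at 100%, the widely expressed at 62.5%, the lineage members at 29.6% and all genes at 52.5%.

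The presence of H3K4me3 did not separate the epidermal from the widely expressed members. Its peaks had a higher median width in the epidermal class. Peaks of this mark touched the span with 1 kb on either side in 9 of 9 epidermal, 8 of 8 widely expressed and 18 of 27 lineage members (66.7%), against 64.1% of all protein-coding genes. Of the 35 Fox genes so marked, 19 had DLX3 in the 20 kb window, against 72.0% of all marked genes. The widest such peak ran from 3075 to 7808 bp in the epidermal class (median 5046 bp), from 2553 to 3942 bp in the widely expressed class (median 2967 bp) and from 1171 to 3384 bp in the lineage class (median 2409.5 bp), with a median of 2406 bp over all marked genes. Among genes with a peak of 3000 bp or more (18.2% of all genes), a limit set after these widths were seen, DLX3 was in the 20 kb window of 9 of 9 epidermal and 5 of 8 other members and of 87.3% of all protein-coding genes. That limit lies below every epidermal width, so the group with a narrower peak could hold no epidermal member. In that group 5 of 18 Fox genes had DLX3, against 66.0% of all. The part of promoter width in the DLX3 calls was not tested.

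The DLX3 difference between the classes was kept in smaller windows but depended on peaks of modest score. The H3K4me3 difference was larger with higher-scoring peaks. With the window reduced to 5 kb, DLX3 was present at 9 of 9 epidermal and 8 of 35 other members, against 41.5% of all genes. With 1 kb, the counts were again 9 of 9 epidermal and 8 of 35 other members (22.9%), against 37.3% of all genes. DLX3 on H3K4me3 within 1 kb was at 8 of 9 epidermal and 8 of 35 other members, against 30.4% of all genes. With peaks at or above the median score, DLX3 was at 6 of 9 epidermal and 10 of 35 other members (36.0% of all genes), H3K4me3 at 8 of 9 and 16 of 35 (53.7%), and DLX3 on H3K4me3 at 4 of 9 and 7 of 35 (25.1%). With the highest-scoring 20% of each list alone, DLX3 was at 3 of 9 epidermal members (Foxo3, Foxp1 and Foxq1) and at 8 of 35 others, against 18.1% of all genes, a difference of 10.5 percentage points, against 62.9 with all peaks. With these peaks H3K4me3 was at 7 of 9 epidermal and 8 of 35 other members (27.0% of all genes), and DLX3 on H3K4me3 at 1 of 9 and 2 of 35 (7.39%). The 65 distinct DLX3 peaks in the Fox windows had a median score of 78.21, against 83.35 in the whole list, and 31 of them (47.7%) overlapped H3K4me3, against 42.1% of the list. Of these 65 peaks, 9 lay nearer to a gene other than the member.

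**Figure D3:**
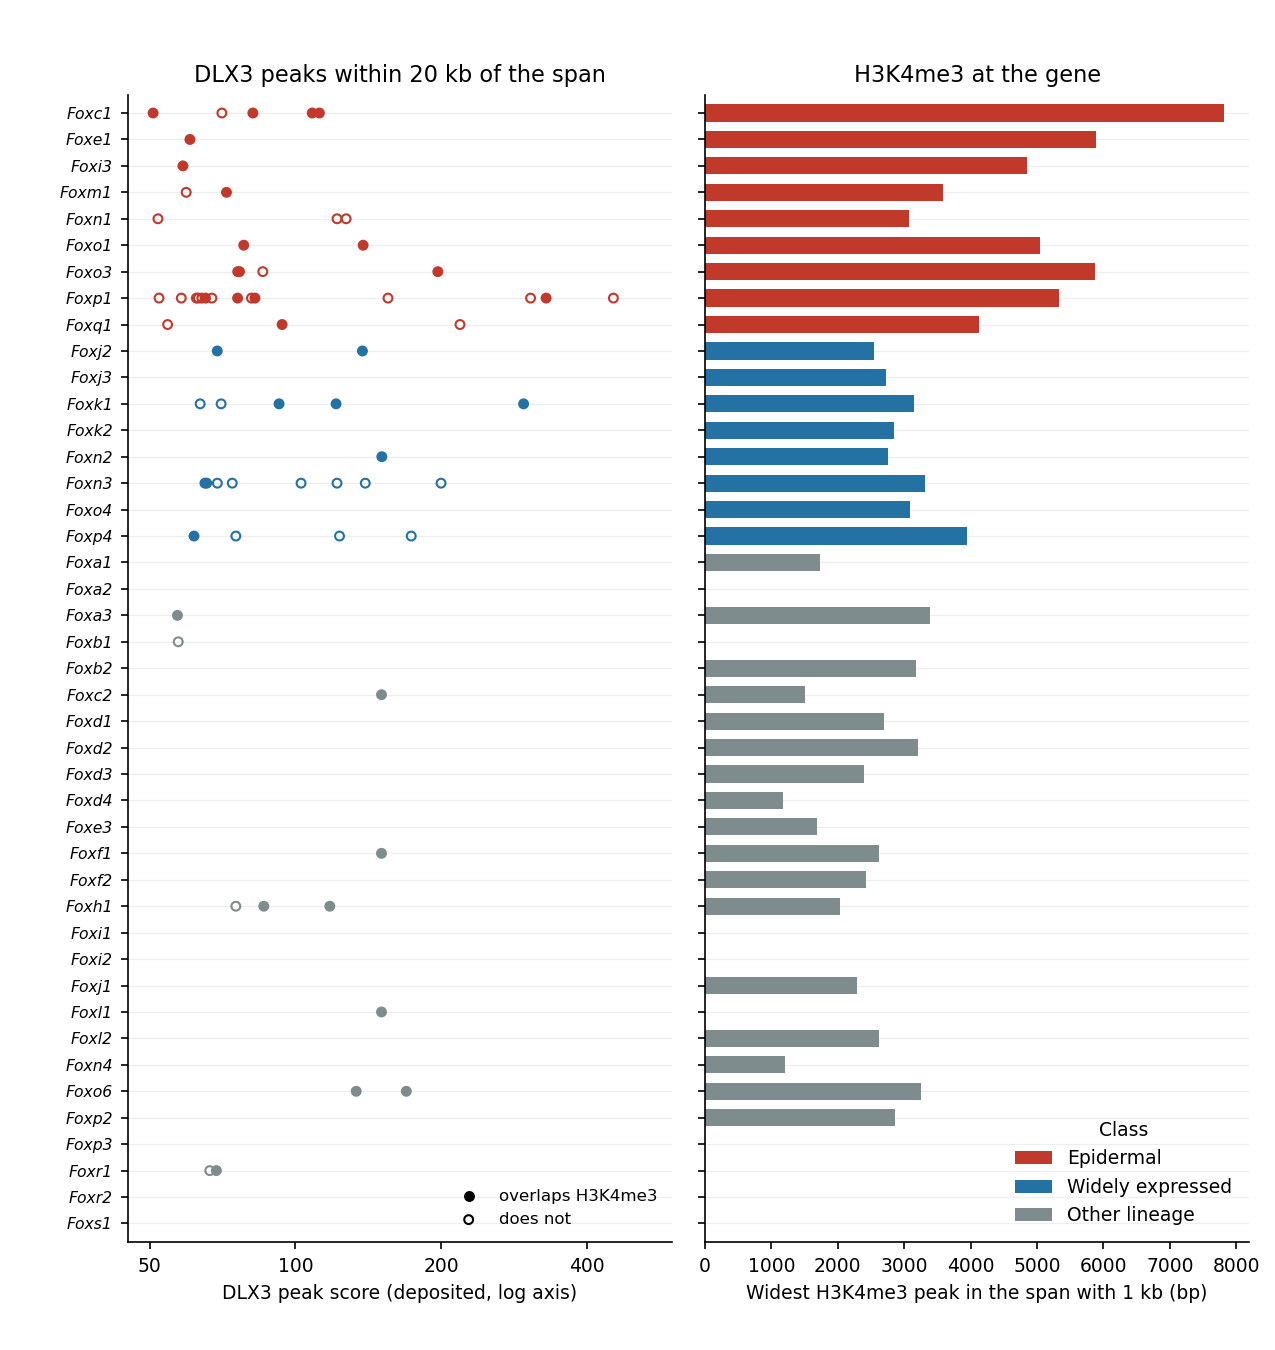
Left, the score of each DLX3 peak in the span with 20 kb of each member shown (log axis; 1 lineage member is not drawn), filled where it overlaps H3K4me3; right, the width in bp of the widest H3K4me3 peak in the span with 1 kb. The 9 epidermal members at the top each have a DLX3 peak and an H3K4me3 width of 3075 to 7808 bp, and most lineage members drawn have no DLX3 peak.

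Among the regulators of hair and keratinocyte differentiation, Foxn1 had DLX3 inside the gene and away from its promoter. Its span (chromosome 11, 78357577 to 78386783) held 3 DLX3 peaks, which scored 127.29 (78362928 to 78363616), 52.01 (78364176 to 78364759) and 121.89 (78377813 to 78378296). They were centred 23336, 22141 and 8554 bp from the annotated start, downstream of it, and none overlapped H3K4me3. The start itself lay in an H3K4me3 peak of 3075 bp with a score of 533.7. Taking the widest H3K4me3 peak of each gene within 1 kb of its span, this was the narrowest and lowest-scoring of the epidermal class. Foxn1 is thus the only epidermal member with no DLX3 peak on H3K4me3.

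Foxq1, Foxf2 and Foxc1 lie in that order along 252.46 kb of chromosome 13, and the outer genes, both epidermal, had DLX3 peaks while Foxf2, known for mesenchyme, had none within 20 kb. At Foxq1 (31558170 to 31560976) a DLX3 peak of score 93.87 (31557382 to 31558458) was centred 250 bp beyond the lower end of Foxq1, in H3K4me3 of 4120 bp with a score of 2975.08. A higher DLX3 peak of score 218.74 (31578101 to 31578944), rank 1214 of 18087, lay 17546 bp from the other end without H3K4me3, followed by a peak of 54.46 at 19058 bp. At Foxc1 (31806646 to 31810635) the H3K4me3 peak was 7808 bp wide, rank 82 by width of 16735, with a score of 3100. It held 3 DLX3 peaks, of scores 108.31 over the start, 50.83 within the gene and 112.08 just beyond its other end. Another, of 81.69 (31800428 to 31801207), stood on a separate H3K4me3 peak 5829 bp before the start, and the last, of 70.5, lay inside the neighbouring gene Gmds. Foxf2 had 2 H3K4me3 peaks, of scores 636.84 and 139.86, and its nearest DLX3 peak, the 54.46 peak next to Foxq1, was 45617 bp away.

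**Figure D4:**
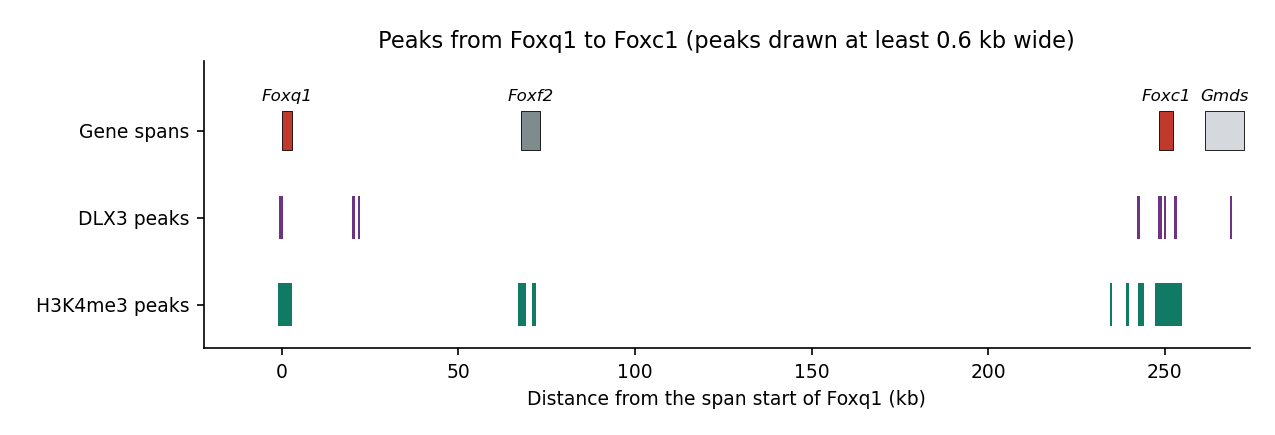
Gene spans (red, epidermal Fox genes; dark grey, Foxf2; light grey, part of Gmds), DLX3 peaks and H3K4me3 peaks along chromosome 13 from Foxq1 to Foxc1 with 20 kb on either side; the horizontal axis is distance from the span start of Foxq1 in kb. The 8 DLX3 peaks lie near Foxq1 and Foxc1, whereas the 7 H3K4me3 peaks include 2 on Foxf2.

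Foxe1 and Foxi3, both of hair follicle development, each had 1 DLX3 peak, placed at the gene's end and low in score. The Foxe1 peak (chromosome 4, 46343429 to 46343680) scored 60.56, was 252 bp wide, among the narrowest of the list at rank 18001 of 18087 by width, and was centred 90 bp outside the span. It lay in an H3K4me3 peak of 5884 bp, the second widest of the family, whose score was 808.2. The Foxi3 peak (chromosome 6, 70956052 to 70956610) scored 58.56 and was centred 275 bp before the start, in an H3K4me3 peak of 4847 bp that scored 2079.97. Neither DLX3 peak reached the median score of its list.

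Foxp1 had the most DLX3 peaks of the family. Over its span (chromosome 6, 98925342 to 99522746) with 20 kb there were 14, a number that 14 of 21887 protein-coding genes reach (0.064%), all 14 with spans over 100 kb. Of the 2429 genes of that length, they make up 0.576%. The density at Foxp1 was 2.196 peaks per 100 kb, against 11.366 at Foxc1 and 7.008 at Foxq1. The Foxp1 window of 637.4 kb was long. Foxp2, with a window of 580.6 kb, had no DLX3 peak, while Foxn3, with 413.6 kb, had 8, or 1.934 per 100 kb. The part of window length in the count was not tested. The 3 highest Foxp1 scores were 453.7 (99528279 to 99529315; rank 101), 329.47 (98949589 to 98950581; rank 326) and 305.99 (99252761 to 99254023; rank 429). The first lay 6051 bp outside the gene and 7804 bp from the start nearest to it, without H3K4me3. That start lay in an H3K4me3 peak of 5333 bp with a score of 3100 that met no DLX3 peak. The start printed above had a DLX3 peak of score 65.22 (99028154 to 99028711) within an H3K4me3 peak of score 2320.13. In all, 4 of the 14 overlapped H3K4me3, and the median DLX3 score was 71.6.

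**Figure D5:**
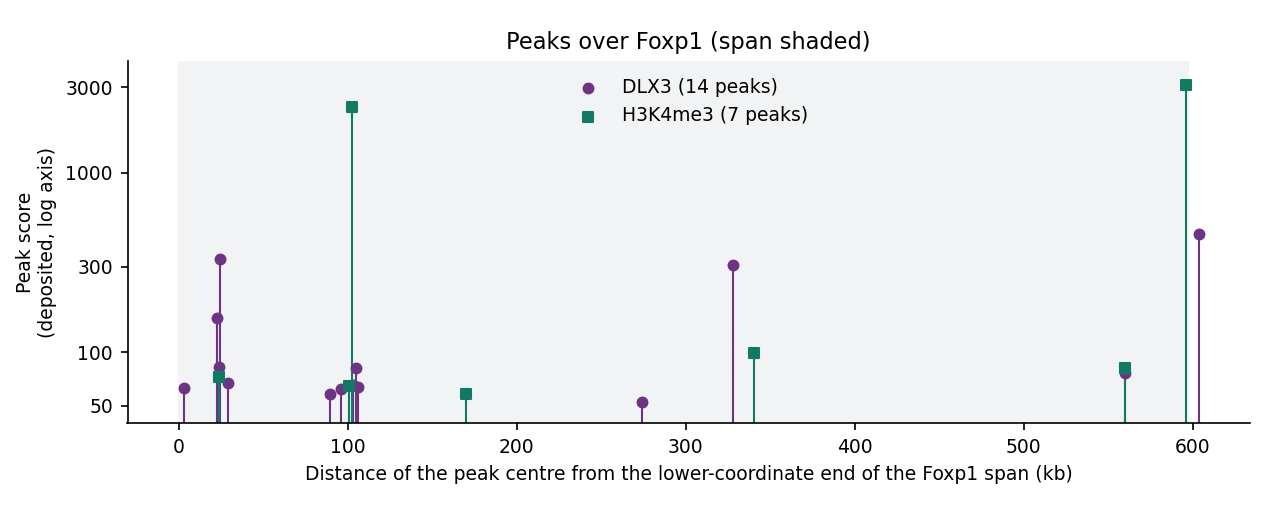
Deposited score (log axis) of the 14 DLX3 peaks (circles) and 7 H3K4me3 peaks (squares) over Foxp1, against the distance in kb of each peak centre from the lower-coordinate end of the span, which is shaded. The highest DLX3 peak, at 453.7, lies just outside the right end of the span, beside the H3K4me3 peak of 3100.

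The FoxO genes differed among themselves. Foxo3 (chromosome 10, 42181845 to 42276695) had 4 DLX3 peaks, and 2 of them stood in its promoter H3K4me3 peak of 5880 bp (score 3100). These were a peak of 196.85 (42277361 to 42278680), centred 1325 bp before the start, and a peak of 76.65 (42276444 to 42277077) over the start. The remaining pair, of 76.0 within the gene and 85.63 beyond its other end, lay outside H3K4me3. Foxo1 (chromosome 3, 52268337 to 52350109) had a peak of 137.98 (52267469 to 52268347) over its start, in an H3K4me3 peak of 5046 bp (score 3100). A second, of 78.21, lay inside the gene on a weak H3K4me3 peak of 55.9, centred 6687 bp from the gene's other end. Foxo6, a FoxO gene known mainly from brain and placed in the lineage class, also had 2, of 169.47 (chromosome 4, 120287550 to 120288336), 682 bp outside an end of its span, and 133.54 inside it, both on H3K4me3. Foxo4, placed in the widely expressed class and located on chromosome X, had H3K4me3 of 3094 bp (score 1054.86) and no DLX3 peak within 20 kb. The DLX3 list is sparse on that chromosome, with 153 peaks, and 16.3% of its protein-coding genes had DLX3 in the window, while 48.7% had H3K4me3. Foxp3 and Foxr2 of the lineage class lie on chromosome X too and had no DLX3.

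Foxm1, a gene of proliferating cells, had a DLX3 peak of 72.05 (chromosome 6, 128362653 to 128363163) centred 86 bp outside an end of its span, in an H3K4me3 peak of 3592 bp (score 2409.15). The gene Rhno1 lies at the same place and was nearer to the centres of both peaks. A second DLX3 peak, of 59.49 (128364918 to 128365395), lay 2162 bp inside Foxm1 without H3K4me3. Both scores were below the median of the list.

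Of the widely expressed members, Foxk1, Foxk2, Foxj2, Foxj3, Foxn2, Foxn3, Foxo4 and Foxp4, all 8 had H3K4me3 at the gene, with scores of 1054.86 to 3100, and 5 had DLX3. Foxk1 and its paralogue Foxk2, regulators of metabolism and autophagy, stood apart. Foxk1 (chromosome 5, 142401497 to 142462015) had 5 DLX3 peaks, of scores 296.0, 121.34, 92.53, 70.24 and 63.58. The highest (142440260 to 142441308; rank 485) lay inside the gene on a weak H3K4me3 peak of 186.18, the next lay over an end of the span, and the peak of 92.53 was nearer to Ap5z1. Foxk2, with promoter H3K4me3 of 2962.98, had no DLX3 peak within 20 kb, and its nearest, of score 54.68, was 22859 bp away. This was the smallest distance among the 22 members without DLX3. On the inner side of the limit, the nearest DLX3 peak to Foxf1 was 19623 bp from its span.

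Foxn2 had 1 DLX3 peak, of 150.85 (chromosome 17, 88440213 to 88441193), over an end of its span in an H3K4me3 peak at the score of 3100. Foxn3 had 8 DLX3 peaks across its span of 373587 bp, with scores of 65.03 to 199.91. At least 8 were found at 0.827% of all genes and at 3.99% of those over 100 kb. Of the Foxn3 peaks 7 lay outside H3K4me3, the highest (chromosome 12, 99356395 to 99357817) included. Foxp4, of the same subfamily as Foxp1, had 4, of 173.47, 123.34, 75.33 and 61.74, and only the lowest overlapped H3K4me3. Its promoter mark of 3942 bp had no DLX3 peak, as at the outer start of Foxp1. Foxj2 had 2, of 137.54 inside the gene and of 68.96 next to Slc2a3, while Foxj3 had none within 88427 bp of its span.

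The lineage members had few DLX3 peaks of their own. Of the 10 distinct peaks in the windows of Foxa3, Foxb1, Foxc2, Foxf1, Foxh1, Foxl1, Foxo6 and Foxr1, 5 were nearer to another gene. Foxf1, Foxc2 and Foxl1, neighbours on chromosome 8 that act in mesenchyme, vessels and gut, share 1 DLX3 peak of 150.6 (121107777 to 121108816). It was nearest to Mthfsd and overlapped an H3K4me3 peak of 1184.86. With the 5 kb window none of these 3 genes had a peak. Foxh1, an effector of Nodal signalling, had a peak of 86.06 (chromosome 15, 76671356 to 76671723) centred 75 bp inside an end of its span, and 2 more, of 117.77 and 75.33, nearer to other genes. Foxa3, a liver and gut regulator, had 1 of 57.07, centred 670 bp before its annotated start. This peak lay in an H3K4me3 peak of 3384 bp (score 1840.86) that covered the Foxa3 start. The centres of both peaks were nearer to Sympk. The single Foxb1 peak, of 57.28, lay 8742 bp from the gene without H3K4me3. Foxr1 had 1 of 68.67 nearer to Ccdc84 and 1 of 66.55, centred 5636 bp from its span.

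No DLX3 peak lay within 20 kb of the other 19 lineage members, among them Foxa1, Foxa2, Foxb2, Foxd1, Foxd2, Foxd3, Foxd4, Foxe3, Foxf2, Foxi1, Foxi2, Foxj1, Foxl2, Foxn4, Foxp2, Foxp3, Foxr2 and Foxs1. Over all 22 members without DLX3, the nearest peak was at a median of 82855.5 bp from the span. Of the 19 lineage members without DLX3, Foxa2, Foxi1, Foxi2 and Foxr2 also had no H3K4me3 within 20 kb, and Foxb1, with its single DLX3 peak, was the other member of 44 without the mark there. The regulatory T cell gene Foxp3 and the gene Foxs1 had H3K4me3 in the window but not within 1 kb of the span.

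H3K4me3 was present within 1 kb of the span at 18 of 27 lineage members (66.7%), near the 64.1% of all protein-coding genes. Within 1 kb of the span, the highest score per gene was 533.7 to 3100 in the epidermal class (median 2975.08), 1054.86 to 3100 in the widely expressed class (median 2405.4) and 92.53 to 2136.09 in the 18 marked lineage members (median 409.04), with a median of 1271.89 over all marked protein-coding genes. The 5 widest H3K4me3 peaks of the family all belonged to epidermal members, namely Foxc1, Foxe1, Foxo3, Foxp1 and Foxo1. Among lineage members, picked after their values were seen, the ciliogenesis gene Foxj1 scored 1044.56, the ovary gene Foxl2 356.39 and Foxd4 92.53. A score of 3100 or more within 1 kb of the span was reached at Foxc1, Foxo1, Foxo3 and Foxp1 of the epidermal class and at Foxn2, thus at 4 of 9 epidermal, 1 of 8 widely expressed and 0 of 27 lineage members, against 5.18% of all protein-coding genes. Foxd2 and Foxe3 lie close together on chromosome 4 and share their H3K4me3 peaks in the 20 kb window.

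Set beside other transcription factor families taken by symbol, the Fox family had DLX3 within 20 kb at 22 of 44 genes, against 23 of 39 Hox (59.0%), 11 of 19 Sox (57.9%) and 13 of 17 Klf genes (76.5%). Within 1 kb of the span the counts were 17 of 44 Fox (38.6%), 8 of 39 Hox (20.5%), 6 of 19 Sox (31.6%) and 12 of 17 Klf genes (70.6%), against 37.3% of all protein-coding genes. Hox genes lie in clusters and share peaks, and these shares were not tested against each other.

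The genes that act above and below the FoxO and FoxM1 proteins were counted in the same 20 kb window. Of 24 regulators of FoxO, such as the PI3K, AKT and SGK kinase genes and the phosphoserine-binding adaptor genes of the Ywha family, 22 had DLX3 in the 20 kb window (91.7%) and 24 had H3K4me3, against 52.5% and 71.2% of all protein-coding genes. Ywhab was among those without DLX3. Sfn is also on the keratinocyte marker list. The 3 highest-scoring peaks were at Ywhag (366.43), where Hspb1 was nearer, at Pik3cb (268.49; chromosome 9, 99139845 to 99140652), a catalytic subunit gene of PI3K, and at Sfn (238.97), where Zdhhc18 was nearer. Of 22 FoxO target genes 15 had DLX3 (68.2%), led by the sestrin gene Sesn3 (303.38; chromosome 9, 14275763 to 14276706), Cdkn1a (226.54), which encodes the cell cycle inhibitor p21, and Pik3ip1 (224.29). Sod2, Cat, Fasl, Tnfsf10, Fbxo32, Trim63 and Klf2 had none. Of 12 FoxM1 targets 9 had DLX3 (75.0%), led by Birc5 (397.12), Aurkb (196.14), where Borcs6 was nearer, and Ccna2 (187.99), while Plk1, Cenpa and Cenpb had none. H3K4me3 was in the window of 19 of the 22 FoxO targets and of all 12 FoxM1 targets. Of all protein-coding genes with H3K4me3 within 1 kb of the span, 72.0% had DLX3 in the 20 kb window. The FoxO and FoxM1 lists hold mostly genes that many tissues express, and they were not tested against all genes or against marked genes.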

How the data were processed

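The members and the gene lists were chosen with earlier results of these data known. Bowtie 1.1.2, MACS 1.4.2, HOMER and the build mm10 are named, per the submitters' processing notes, without settings or roles. The authors deposited 1 list for each of the DLX3 and H3K4me3 libraries, giving chromosome, start, end and a score for each peak. Whether IgG served as the control is not stated in the labels. Depth is unknown.

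Peak positions were written counting from 1. RefSeq spans of GRCm38.p6 gave the genes, without strand or exons, so strand and starts came from the promoter table alone. A peak was given to a gene if it touched the span or the 20 kb on either side, and 1 bp made an overlap. Every member was accounted for, and values are given one by one for the epidermal class, for every other member with DLX3 and for the 5 members with the widest H3K4me3. The pathway genes named by their 3 highest DLX3 scores were chosen with values known. Some single genes are counted but not reported here. No p-value was computed, since each antibody has 1 library. Counts were repeated with other windows, score limits, overlap rules and class definitions. Interval code was tested on simulated data. Python 3.11.15, numpy 2.4.6 and pandas 2.3.3 were used.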

Additional observations from a re-analysis of the deposited data

How the results depend on the processing

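Other windows (1, 5 and 50 kb), score limits, centre or nearest-gene rules, overlap rules and class definitions gave 73 values. Only the differences between epidermal and other members have a direction, and none of these reversed it. Of the 73 values, 61 stayed within 1.5 times the count, or within the 95% interval of the difference between shares, and 12 did not. That interval (Newcombe's method, from Wilson intervals) covers counting error only. It treats genes as independent draws, although some neighbouring genes share peaks. It served as a yardstick only and is no test of the classes, which were drawn up with earlier results known. With all peaks it was wide, at 28.7 to 76.8 points for DLX3 and 18.2 to 70.9 for DLX3 on H3K4me3. For H3K4me3 it ran from -16.7 to 29.4 points. A value inside such an interval therefore does not show stability. The DLX3 difference of 38.1 points with peaks at or above the median score lay within the DLX3 interval. With the top 20% of peaks the interval of the DLX3 difference was -16.2 to 43.5 points. The top 20% of each list by score gave 11 members with DLX3 (22 with all peaks), 15 with H3K4me3 (39), 8 with both (21) and 3 with DLX3 on H3K4me3 (20). It put the difference, epidermal minus other members, at 10.5 percentage points for DLX3 (62.9 with all peaks), 54.9 for H3K4me3 (14.3) and 5.4 for DLX3 on H3K4me3 (54.6). Peaks at or above the median score gave 24 members with H3K4me3, 11 with DLX3 on H3K4me3 and an H3K4me3 difference of 43.2 points. Windows of 5 kb and of 1 kb each gave a DLX3 difference of 77.1 points. Fewer peaks, or a smaller window, enter these counts by construction. Leaving out the members of chromosome X or with spans over 100 kb, chosen after the data were seen, gave DLX3 differences of 59.4 and 63.6 points. No paired analysis was possible because each antibody has 1 library and no test was made. Without read counts, what depth hides below the lowest score could not be measured.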
